A study of Homo sapiens with 4 samples.

Results

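Sites of accessible chromatin listed from FAIRE-seq, the sequencing of DNA recovered by formaldehyde-assisted isolation of regulatory elements, were used to find the stretches of the autosomes without any such site in an adrenocortical tumour cell line. The genome (hg19, the same assembly as GRCh37) was divided into fixed windows of 500 kb from position 0, and on each of chromosomes 1 to 22 the windows from the one with the first site to the one with the last were kept, 5601 in all. In 477 of these windows no base belonged to a site in either of the 2 deposited lists. Of the 477, 181 consisted of more than 50% undetermined bases (N) and were set apart as assembly gaps. The remaining 296 are called site-free windows, and they are compared with 5105 windows that have sequence and at least 1 site. The windows were selected on the measured sites themselves, so their lack of sites is a description, and with 1 library in each condition there is no replicate check.

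H295R/TR SF-1 cells are a subclone of the H295R adrenocortical tumour line that carries an inducible copy of SF-1 (NR5A1), the nuclear receptor that switches on steroidogenic genes. The lists came from 1 FAIRE library of cells with basal SF-1 expression and 1 of cells that overexpressed SF-1 after 3 days of doxycycline, the inducing drug. Both conditions were of the same subclone, so clone and line cannot be told apart. Each condition also had 1 input DNA sample, not analysed here, and the deposited lists give no read counts, so the sequencing depth is unknown. The basal list held 33498 autosomal sites and the overexpression list 30432, each of a median width of 249 bp, and a window with sequence had a median of 10 sites from both lists together (quartiles 4 and 17). A site that is not listed was not called, which does not show that the DNA was closed.

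In FAIRE, crosslinked chromatin is sheared and extracted with phenol, and DNA that is not bound in nucleosomes stays in the aqueous phase. Such DNA is found mainly at active promoters, many of which are rich in CpG dinucleotides, and at active enhancers. Long stretches without genes, called gene deserts, tend to be AT-rich and packed in inactive chromatin. Clusters of genes that serve other cell types, such as olfactory receptors and keratin-associated proteins, and the very long genes of neurons are also usually silent outside their own tissue.

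Promoters of 5 genes that start in site-free windows are shown because they span the range of sequence found there, and because their genes return in the results; they were chosen after these values were seen. Each runs from 250 bases before to 50 bases from the annotated start, 5′ to 3′ on the plus strand of GRCh37, which is the strand of all these genes, with every CpG in capitals. RAN encodes the GTPase of nuclear transport and has 60 CpG in chr12:131356332-131356631. MYCN, a MYC family transcription factor, has 14 in chr2:16080422-16080721. The keratinocyte adhesion gene DSG1 (desmoglein 1) has 3 in chr18:28897873-28898172. NR5A2 encodes LRH-1, the nearest relative of SF-1, and has 0 in chr1:199996492-199996791, as does the olfactory receptor OR5D13 in chr11:55540664-55540963.
RAN: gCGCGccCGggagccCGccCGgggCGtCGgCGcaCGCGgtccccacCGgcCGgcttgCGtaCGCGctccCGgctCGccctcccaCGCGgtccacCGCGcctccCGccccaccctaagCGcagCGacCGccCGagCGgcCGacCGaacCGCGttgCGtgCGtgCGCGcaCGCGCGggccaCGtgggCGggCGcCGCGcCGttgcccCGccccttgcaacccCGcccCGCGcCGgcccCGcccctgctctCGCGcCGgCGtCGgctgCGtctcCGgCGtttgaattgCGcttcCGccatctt
MYCN: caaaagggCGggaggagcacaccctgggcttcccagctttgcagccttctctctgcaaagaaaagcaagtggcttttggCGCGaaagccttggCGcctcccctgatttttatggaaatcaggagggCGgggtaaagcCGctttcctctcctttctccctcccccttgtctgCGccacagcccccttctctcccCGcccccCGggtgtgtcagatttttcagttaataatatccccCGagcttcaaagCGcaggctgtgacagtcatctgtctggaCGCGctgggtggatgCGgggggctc
DSG1: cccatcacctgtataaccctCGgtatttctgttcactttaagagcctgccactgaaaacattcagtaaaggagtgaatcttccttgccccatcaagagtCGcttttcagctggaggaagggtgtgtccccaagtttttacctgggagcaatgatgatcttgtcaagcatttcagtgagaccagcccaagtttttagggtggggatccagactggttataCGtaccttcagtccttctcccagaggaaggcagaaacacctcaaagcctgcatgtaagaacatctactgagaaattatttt
NR5A2: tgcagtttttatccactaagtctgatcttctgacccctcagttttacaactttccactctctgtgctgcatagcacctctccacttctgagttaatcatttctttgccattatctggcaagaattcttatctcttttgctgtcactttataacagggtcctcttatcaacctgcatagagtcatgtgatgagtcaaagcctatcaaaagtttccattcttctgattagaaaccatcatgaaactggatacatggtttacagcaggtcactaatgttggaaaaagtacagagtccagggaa
OR5D13: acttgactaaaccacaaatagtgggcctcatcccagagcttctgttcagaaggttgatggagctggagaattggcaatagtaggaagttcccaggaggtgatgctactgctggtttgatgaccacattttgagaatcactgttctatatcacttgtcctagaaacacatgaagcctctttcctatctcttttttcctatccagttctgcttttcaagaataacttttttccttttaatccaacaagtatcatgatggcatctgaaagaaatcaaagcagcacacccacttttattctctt

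The nearest listed site to these starts was 233 kb away for RAN, 363 kb for MYCN, 192 kb for DSG1, 327 kb for NR5A2 and 493 kb for OR5D13. A CpG-dense promoter without a site nearby was thus present among the site-free windows, next to promoters with no CpG at all.

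The FAIRE sites that bound a run of 4 site-free windows on chromosome 1, of which no run had more, are shown to set site sequence beside that of the promoters, on the plus strand with CpG in capitals. The left one is a basal site of 149 bp at chr1:105883951-105884099 with a GC content of 27.5% and 0 CpG. The right one is an overexpression site of 249 bp at chr1:108113101-108113349 with 61.8% GC and 17 CpG.
Left: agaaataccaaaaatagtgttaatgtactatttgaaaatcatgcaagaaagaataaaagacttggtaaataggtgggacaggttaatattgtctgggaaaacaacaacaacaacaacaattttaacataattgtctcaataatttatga
Right: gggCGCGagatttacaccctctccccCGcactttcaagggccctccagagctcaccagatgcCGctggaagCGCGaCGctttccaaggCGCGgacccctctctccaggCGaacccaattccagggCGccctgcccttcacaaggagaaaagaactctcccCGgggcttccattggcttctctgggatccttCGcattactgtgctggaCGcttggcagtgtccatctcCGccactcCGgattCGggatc

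Site-free windows made up 296 of 5401 windows with sequence, which is 5.48% (exact 95% interval 4.89 to 6.12%, counting error only, as for all intervals here; neighbouring windows are not independent). They held 146 Mb, or 5.44% of the sequence of the windows. They were found on 21 of the 22 autosomes. Chromosome 19, the most gene-dense autosome, had 0 among 113 windows, which allows a share of up to 2.65%. The highest shares were on chromosome 18 with 14 of 150 windows (9.33%, interval 5.20 to 15.2%), chromosome 4 with 35 of 376 (9.31%, 6.57 to 12.7%), chromosome 9 with 22 of 245 (8.98%, 5.71 to 13.3%), chromosome 8 with 24 of 287 (8.36%, 5.43 to 12.2%) and chromosome 2 with 38 of 479 (7.93%, 5.67 to 10.7%). The interval lay above the pooled 5.48% on chromosomes 2, 4 and 9, and below it on chromosomes 3 (1.54%), 15 (1.83%), 17 (1.27%) and 19. Chromosome 9 differed from the other 2 in that much of its site-free sequence is repeated within the genome. In 12 of its 22 site-free windows, less than 50% of the sampled short stretches occur once, and 10 lay at or above that limit. Chromosomes 2 and 4 had 0 site-free windows under it. The interval of chromosome 9 without these 12 windows was not computed. Across the 22 autosomes the rank correlation of the share with GC content was weak (Spearman rho -0.333), as a description of chromosomes whose windows share the libraries.

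**Figure D1:**
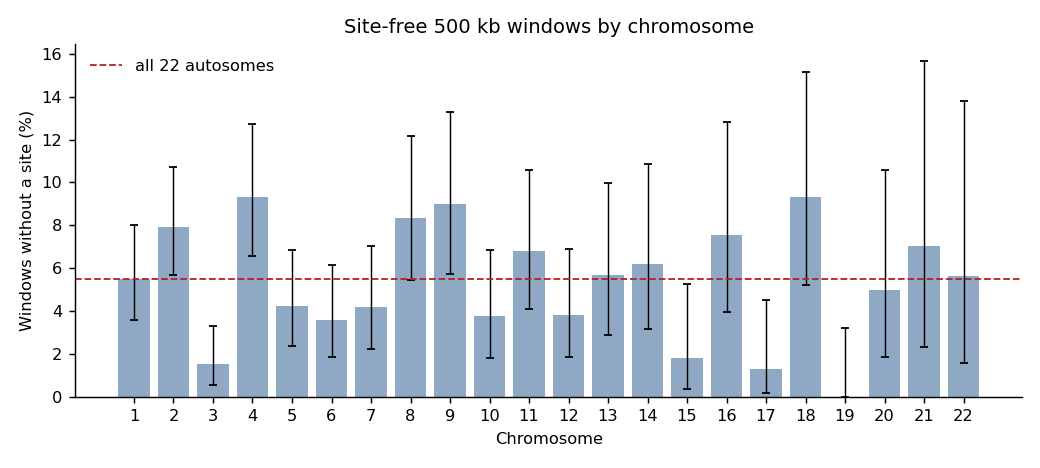
Bars give the percentage of 500 kb windows with sequence that no FAIRE site touched, for each autosome on the horizontal axis, with exact 95% intervals as whiskers and the pooled 5.48% as a dashed line. Chromosomes 2, 4 and 9 lie above the line with their whole interval, and chromosomes 3, 15, 17 and 19 below it. On chromosome 9, 12 of the 22 site-free windows consist mostly of sequence repeated within the genome, against 0 on chromosomes 2 and 4.

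The site-free windows formed 231 runs of neighbours. There were 178 lone windows, 43 runs of 2, 8 runs of 3 and 2 runs of 4, and 118 windows stood in a run of 2 or more. The surroundings were also poor in sites. Windows with sites that adjoined a site-free window had a median of 3 sites, those at a distance of 2 windows had 6, those at 3 to 5 windows had 9, and those farther away had 12. The median GC content rose over the same steps from 38.0 to 38.8, 39.8 and 40.9%.

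The 2 longest runs had 4 windows each. In that at chr1:106000001-108000000, the distance between the bounding sites was 2.23 Mb. Its GC content was 35.6%, and 2 protein-coding genes started in it, namely PRMT6, an arginine methyltransferase of histones, and NTNG1, an adhesion molecule of axons (netrin G1). Their starts lay 514 and 430 kb from the nearest site, and both had CpG-rich promoters. The other, at chr2:193500001-195500000, had no start of a coding gene and no base of one. It had 34.0% GC and 16 annotated gene starts, of which 7 were of long non-coding RNAs (lncRNAs) and 8 of pseudogenes, and it was clear of sites over 2.60 Mb.

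Runs of 3 windows followed, 8 of equal length. Of these, chr1:4000001-5500000 held AJAP1, a protein of adherens junctions, whose start was 897 kb from a site. The run at chr1:81500001-83000000 held ADGRL2, the adhesion receptor latrophilin 2, and chr4:131500001-133000000 held no coding start. The naming rule ended with these 5 runs, and the tied runs below were named after their values were seen. CSMD1, a complement regulator of the nervous system, covered most of chr8:3500001-5000000. UNC5D, a netrin receptor, started in chr8:34000001-35500000, and CDH4, which encodes the adhesion protein R-cadherin, in chr20:59000001-60500000. The run at chr11:49000001-50500000 held 6 coding starts, among them the olfactory receptors OR4C13 and OR4C12 and FOLH1, a folate hydrolase. The last, at chr9:45500001-47000000, held 4 genes of the FAM27 family in sequence of which only 2.31% of sampled 31-mers occur once in the genome, and it adjoined the centromeric gap. Among the 10 runs of 3 or 4 windows, GC content ranged from 34.0 to 47.3%, 2 runs had no coding start and 5 had 1.

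**Figure D2:**
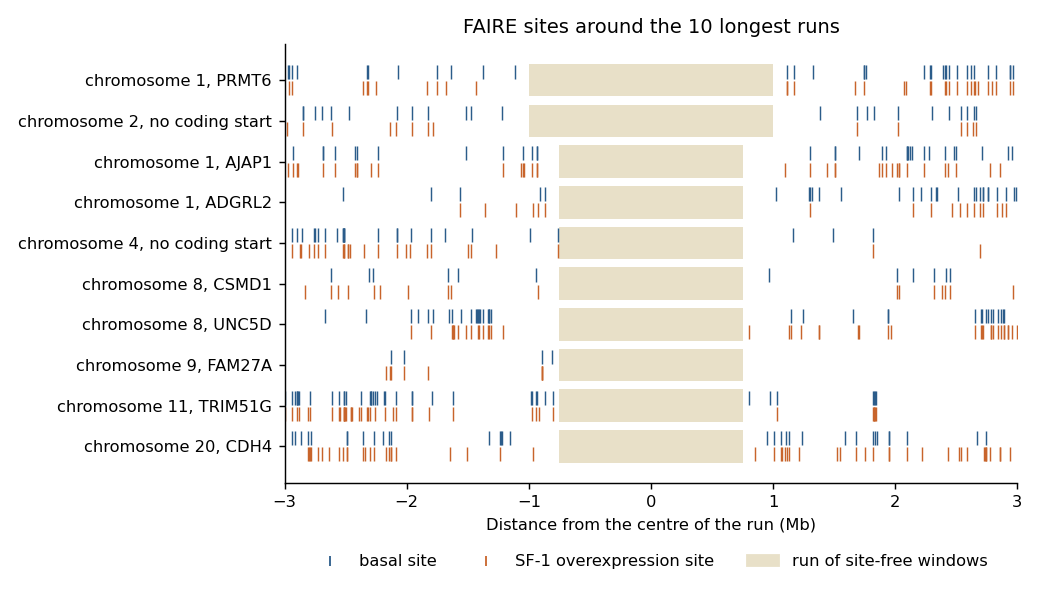
Each row is 1 of the 10 longest runs, named by its chromosome and first coding gene, with the run shaded and the FAIRE sites of the basal list (blue, upper) and the overexpression list (orange, lower) as ticks by their distance in Mb from the centre of the run, to 3 Mb on either side. Both lists resume on both sides of 9 runs. The run on chromosome 9 has sites on the left only, and the centromeric gap lies to its right.

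The site-free windows were AT-rich. Their median GC content was 37.3% (quartiles 35.5 and 40.3%), against 40.3% (37.6 and 43.8%) for windows with sites, and 222 of 296 (75%, interval 69.7 to 79.8%) lay below the latter median. That share was 25 percentage points above that of windows with sites (interval 19.6 to 29.8). The median was lower in the site-free windows on 17 of the 21 chromosomes and higher on the other 4 (chromosomes 10, 12, 15 and 22). CpG dinucleotides numbered 6.33 per kb in the median, against 8.70.

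Read by composition, the share of windows without a site was 17.7% of 300 windows at 32.5 to 35% GC and 9.68% of 1085 at 35 to 37.5%. It was 4.56% of 1228 at 37.5 to 40% and ranged from 2.31 to 4.05% between 40 and 52.5%. Above 52.5% GC, 0 of 118 windows lacked sites, which allows a share of up to 2.54%. Even in the most AT-rich class most windows had sites, with a median of 2.

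A GC content of at least 45% was found in 22 site-free windows (7.43%), against 19.5% of windows with sites. The 5 richest in GC are described here. The window chr4:8500001-9000000 (52.2% GC) held the orphan receptor gene GPR78, the carboxypeptidase gene CPZ and the homeobox gene HMX1. The next, chr20:60000001-60500000 (52.1%), lay wholly inside CDH4. The window chr11:69500001-70000000 (51.6%) held the fibroblast growth factor genes FGF19, FGF4 and FGF3 and the chloride channel gene ANO1. Both windows of chr22:49000001-50000000 (51.4 and 49.7%) had no coding start.

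Most site-free windows contained no start of a protein-coding gene. This was so for 195 of 296 (65.9%, interval 60.2 to 71.3%) against 1198 of 5105 windows with sites (23.5%, 22.3 to 24.7%), a difference of 42.4 percentage points (36.7 to 47.7). The mean number of coding starts was 0.848 per window against 3.72. On all 21 chromosomes the site-free windows had fewer coding starts and lacked them more often. Since GC content goes with gene number, the windows with sites were weighted to the GC content of the site-free windows. They then had a mean of 2.25 coding starts and lacked one in 39.7% of cases, so that the difference was 26.1 percentage points. The mean number of coding starts relative to this GC-standardised value was 0.376.

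Other kinds of gene were less depleted. Relative to windows with sites of like GC content, the mean number of lncRNA starts was 0.837, and that of pseudogene starts 0.951. The medians, not weighted to GC content, differed more for pseudogenes, with 1 start in site-free windows and 2 in windows with sites. For lncRNAs they were 2 and 3. In all, 251 of 19225 coding starts lay in site-free windows (1.31%), against 632 of 18214 lncRNA starts (3.47%) and 607 of 14061 pseudogene starts (4.32%). For all annotated genes it was 1776 of 61178 (2.9%). Just 9 site-free windows (3.04%) had no annotated gene start of any kind, against 0.979% of windows with sites.

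No base of a coding gene was found in 141 site-free windows (47.6%), against 14.5% of windows with sites, a difference of 33.2 points (27.4 to 38.9). At the other end, windows covered to at least 90% by coding genes were as frequent within counting error. They were 28 of 296 (9.46%) and 475 of 5105 (9.30%), a difference of 0.155 points (-2.80 to 4.10). Gene deserts and windows filled by genes were thus both among the site-free windows.

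**Figure D3:**
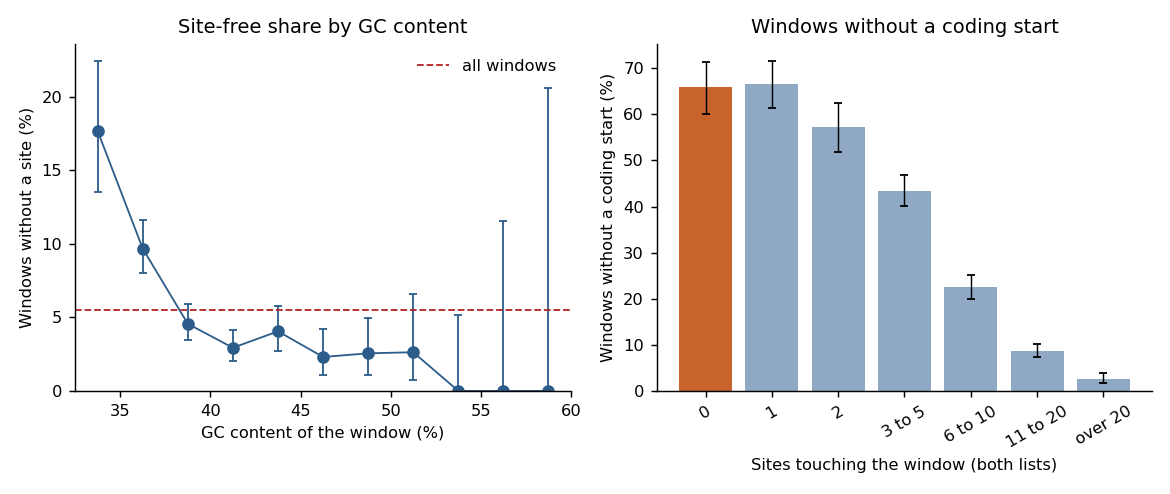
Left, the percentage of windows without a site against the GC content of the window in classes of 2.5 percentage points, with the share of all windows dashed, for classes of at least 10 windows. Right, the percentage of windows without a protein-coding gene start by the number of sites that touch the window, with the site-free windows in orange. Whiskers are exact 95% intervals. The share falls from 17.7% in the most AT-rich class to 0 above 52.5% GC, and windows with 0 and 1 site stand at 65.9 and 66.7%.

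Some site-free windows were filled by a very long gene. Of the site-free windows, 20 lay wholly inside 1 coding gene, and 17 genes held at least 1 such window, those described being chosen after their values were seen. PTPRD, a receptor tyrosine phosphatase of synapses, held 3 windows, and over its length of 2299 kb it had 0 basal sites and 1 overexpression site. CSMD1 held 2 windows and had 1 site in each list over 2060 kb. RBFOX1, a neuronal splicing factor, had 2 basal and 3 overexpression sites over 2474 kb. CNTNAP2, an axonal adhesion gene of similar size at 2305 kb, also held a site-free window, but it had 9 basal and 11 overexpression sites and one of them touched its start.

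The other genes of this kind included the synaptic genes NRXN3, LINGO2 and NEGR1, the reelin adaptor DAB1, the growth factor NRG1 and the netrin receptor DCC. NRXN3 and DCC had 1 basal and 0 overexpression sites each, and NRG1 had 2 and 0. LINGO2 had 2 and 2, and NEGR1 had 2 and 1. Others had more, as DAB1 had 6 and 9, one of which touched its start, and DPP6 had 6 and 2. MGAT4C (883 kb, a glycosyltransferase), CDH4 (688 kb) and FAT3 (672 kb, an atypical cadherin) had no site in either list over their whole length.

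In all, 206 coding genes lay wholly within site-free windows. The longest was TMEM132D (832 kb), followed by ADGRL2 (688 kb), MYT1L (543 kb), a zinc finger factor of neurons, SPOCK3 (501 kb), a proteoglycan, and BNC2 (461 kb), a zinc finger factor. CARD18 (394 kb) and KCNQ3 (360 kb), a neuronal potassium channel, came next. Others among the 20 longest were the cation channel TRPC4 (238 kb), the oxysterol hydroxylase CYP7B1 (211 kb), the glycine receptor GLRA3 (192 kb), the epithelial factor GRHL2 (177 kb) and the potassium channel KCNJ3 (161 kb). The rest of that list were CNTNAP3B, SMOC2, PPP1R3A, DDX60L, COX7B2, ASXL3, VWC2L and ADAM29, from 149 to 239 kb.

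Of the 101 site-free windows with a coding start, 60 had 1. The 10 site-free windows with the most coding starts, picked for that number, held 109 of the 251. The matching share for windows with sites was not computed. The window with the most, 21, was chr8:7500001-8000000, with FAM90A genes and the beta-defensin genes DEFB103A to DEFB107A. Next came chr11:55500001-56000000 with 19 starts, of which all but the ubiquitin ligase family gene TRIM51 were olfactory receptors. The window chr1:247500001-248000000 (15 starts) held olfactory receptors beside NLRP3, a sensor of the inflammasome. PRAMEF genes were 16 of the starts of chr1:13000001-13500000 and the window after it (12 and 8 starts), where the others were HNRNPCL2, WI2-3308P17.2, LRRC38 and PDPN, and chr11:55000001-55500000 (10 starts) held TRIM48 and otherwise olfactory receptors. The 9 starts of chr21:32000001-32500000 were all of keratin-associated proteins, which build hair. The 5 starts of chr18:28500001-29000000 were the desmosomal cadherins DSC3, DSC2, DSC1, DSG1 and DSG4, which join keratinocytes. The last windows, chr4:165500001-166000000 with APELA and chr9:67500001-68000000 with FAM27 genes, had 5 each.

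By family, the share of starts in site-free windows was set beside the 1.31% of all coding genes. It was 40 of 396 olfactory receptors (10.1%, interval 7.31 to 13.5%), in 6 windows. For keratin-associated proteins it was 9 of 94 (9.57%, 4.47 to 17.4%), all in 1 window, and for defensins 7 of 46 (15.2%, 6.34 to 28.9%), in 2 windows. Among cadherins with a CDH symbol it was 4 of 23 (17.4%, 4.95 to 38.8%), and these stood in 4 separate windows, with CDH4, CDH10, CDH13 and CDH19. Contactins and their relatives gave 3 of 13 (CNTN3, CNTNAP3B and CNTNAP3C), and GABA receptors 2 of 16, both in 1 window. These 6 of the 23 families listed had intervals wholly above 1.31%, although members that share a window are not independent, and those of the contactins and defensins rested on windows of repeated sequence, as given below. The median distance from a start to the nearest site was 70.0 kb for olfactory receptors, 65.9 kb for keratin-associated proteins and 19.2 kb for cadherins, beside 2.09 kb for all coding genes. It was 5.39 kb for contactins. Families without a start in site-free windows ranged from 0 kb (ribosomal proteins) to 48.0 kb (PSG, KIR and LILR genes), so a long distance was not particular to the families above 1.31%.

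The other families of channels, receptors and synaptic proteins had few starts in site-free windows by number. Their shares stood above 1.31%, with intervals that include it. Potassium channels had 4 of 92 starts there (4.35%, interval 1.20 to 10.8%), namely KCNA1, KCNA5, KCNJ3 and KCNQ3. Glutamate receptors had 2 of 27 (7.41%, 0.910 to 24.3%), GRIA4 and GRM5. The group of LRRTM, SLITRK and neuroligin genes had 1 of 10 (10%, 0.253 to 44.5%), SLITRK6. Among transcription factors, the forkhead genes gave 2 of 50 (FOXP2 and FOXD4L2), the SOX genes 1 of 18 (SOX1) and the ZNF genes 5 of 503 (0.994%). The respiratory chain gave 1 of 104, the testis gene COX7B2. There were 0 starts in site-free windows for 10 families. For ribosomal proteins this was 0 of 88, which allows up to 3.41%, for histones 0 of 75 (up to 4%), for protocadherins 0 of 63 (up to 4.76%), for keratins 0 of 55 (up to 5.45%) and for HOX genes 0 of 39 (up to 7.69%). The others were type 2 taste receptors, type I interferons, UDP glucuronosyltransferases, serpins, and the PSG, KIR and LILR genes, with limits from 8.82 to 17.6%. None of these 10 limits lies below 1.31%.

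**Figure D4:**
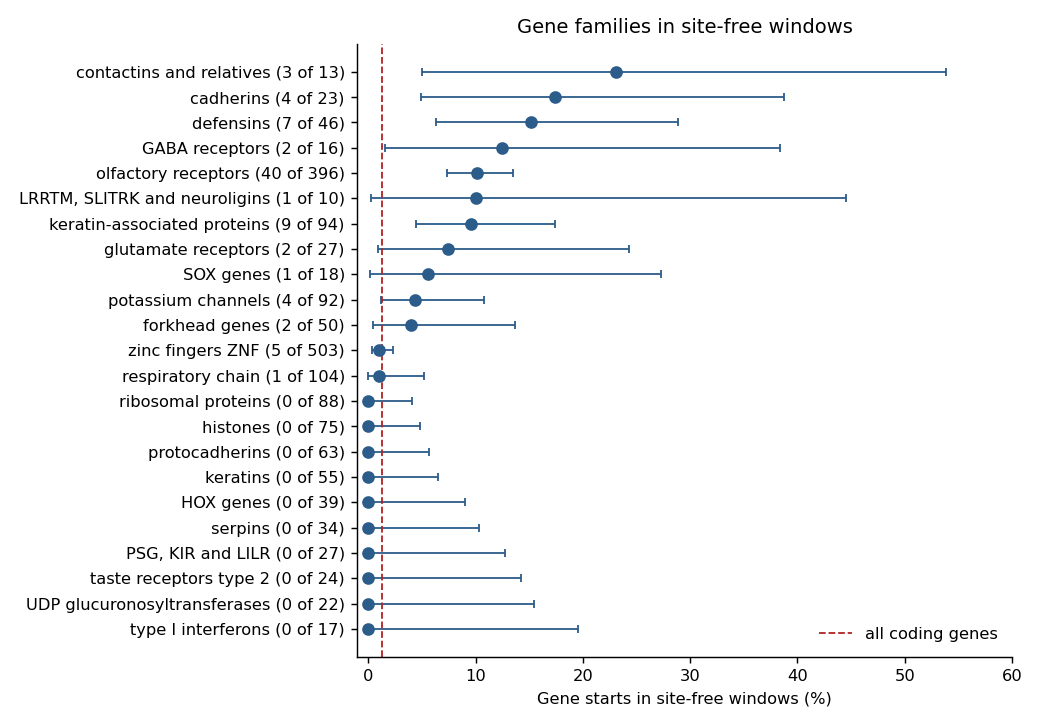
Points give the percentage of each gene family's annotated starts that lie in site-free windows, with exact 95% intervals, the counts in brackets and the share of all coding genes (1.31%) dashed. Olfactory receptors, keratin-associated proteins, defensins, cadherins, contactins and GABA receptors lie above the line with their whole interval, and 10 families stand at 0.

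A further 3 groups were added after their values had been seen. Of the 7 desmosomal cadherins 5 started in site-free windows, all in the window on chromosome 18, and the PRAMEF genes gave 16 of 23 and the FAM90A genes 10 of 21. The sequence of PRAMEF, FAM90A and defensin windows is repeated within the genome. All their starts in site-free windows lay in windows in which less than 50% of sampled 31-mers occur once, a measure of how much of a window reads can be placed in. The part this played was not tested.

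Such windows of low uniqueness were 24 of the 296 (8.11%), against 130 of 5105 windows with sites (2.55%), and 12 of the 22 on chromosome 9 were among them. They held 76 of the 251 coding starts, including SMN1, SMN2, NAIP and GTF2H2 of the duplicated region of chromosome 5. Without windows under 50% unique, 272 site-free windows remained (5.18% of those left). These lacked a coding start in 70.2% of cases against 23.4%, and 0.940% of coding starts lay in them. The median uniqueness of all site-free windows, 89.5%, was not below that of windows with sites, 87.5%. Their mean was lower, however, at 82.7% against 85.0%, or 86.8% after weighting windows with sites to the same GC content. Olfactory receptors had 39 of their 40 starts in windows of higher uniqueness, and the 4 cadherins, 9 keratin-associated proteins and 2 GABA receptors all lay in windows at or above 50%. Contactins fell to 1 of 10 (interval 0.253 to 44.5%, which includes 0.940%), since CNTNAP3B and CNTNAP3C overlap in a window of low uniqueness, and defensins fell to 0 of 30. Potassium channels stayed at 4 of 92 (interval 1.20 to 10.8%), which lay wholly above 0.940%, although it includes the 1.31% of all windows.

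Promoters in site-free windows were poorer in CpG than those elsewhere. A promoter was called CpG-rich at a GC content of at least 50% and a ratio of observed to expected CpG of at least 0.6. This was met by 69 of 251 (27.5%, interval 22.1 to 33.5%). Of 8905 coding starts elsewhere with a site within 1 kb, 79.3% met it. Of 10069 starts elsewhere without a site within 1 kb, 35.0% did, and the site-free windows differed from these by -7.56 points (interval -12.8 to -1.65). That interval counts each start as independent, although many starts share a window and a family, such as the PRAMEF and FAM90A genes. Without olfactory receptors, the shares were 32.7% of 211 (26.4 to 39.5%) and 36.3% of 9714 (35.3 to 37.2%), and their intervals overlapped. The median CpG number in the 300 bases was 5 in site-free windows, 8 at the other starts without a site within 1 kb and 24 at starts with one.

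**Figure D5:**
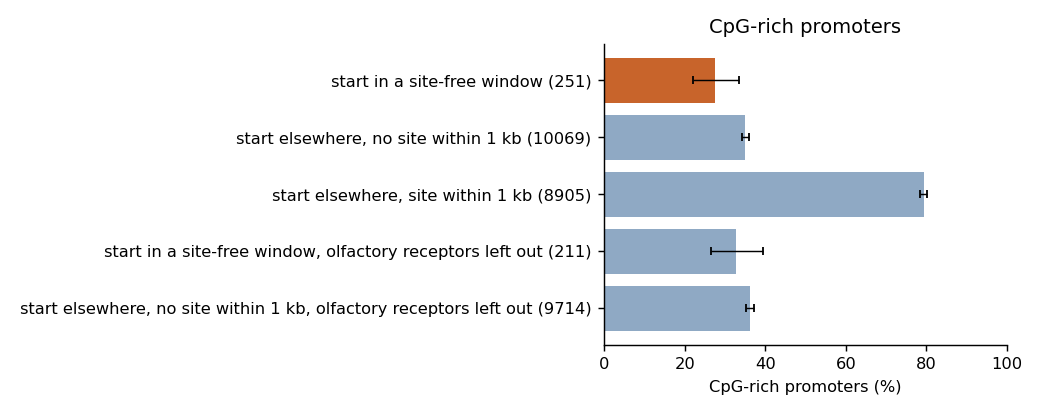
Bars give the percentage of coding genes with a CpG-rich promoter, by where the gene starts, with the number of genes in brackets and exact 95% intervals as whiskers. The site-free windows (orange) stand at 27.5%, other starts without a site within 1 kb at 35.0% and starts with one at 79.3%.

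The CpG-rich promoter with the highest ratio was that of RAN (1.28), the sequence printed above, followed by POTEC (1.26), ASXL3 (1.16), a chromatin regulator, ZNF239 (1.11), and FOXP2 (1.09), a forkhead factor of the brain. BNC2, SMN2, TLN2 and GTF2H2 followed, with ratios from 1.07 to 1. Others of the first 20 were GABRB1 and GABRA4, subunits of the GABA-A receptor that start side by side and 266 kb from a site. TENM2, SLC24A3, TMEM132D, HMX1, ZNF32, SMN1 and GALNT17 and the DNA repair gene MGMT (361 kb from a site) were also among them. RAN (nuclear transport), SMN1 and SMN2 (assembly of splicing particles), GTF2H2 (general transcription) and MGMT serve functions common to most cells. SMN1, SMN2 and GTF2H2 lay in windows under 50% unique. Over all 251 genes, the distance from the start to the nearest site had a median of 302 kb and ranged from 15.2 to 949 kb, as the rule requires, against a median of 1.84 kb for other coding genes.

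The windows of 12 genes of adrenal steroid synthesis, which mark the cell type of the label, were also examined. All 12 had sites in both lists, so 0 of 12 lay in site-free windows, which allows up to 25%. With 1.31% of all coding starts there, a count of 0 among 12 genes is no result about these genes and does not test the label. The window of NR5A1 itself had 24 basal and 17 overexpression sites, that of CYP11A1, the first enzyme of steroid synthesis, 23 and 30, that of CYP17A1 18 and 12, and that of STAR, which brings cholesterol into mitochondria, 10 and 16. The lowest was the window of MC2R, the ACTH receptor, with 1 basal and 3 overexpression sites. CYP11B1 and CYP11B2 shared a window with 2 and 3.

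Genes that the study lists as regulated by SF-1 on expression arrays of this line were looked up in the same way. Of 415 autosomal coding genes matched by name, 0 started in a site-free window, beside 1.31% of all coding genes, and a count of 0 allows up to 0.723%. By list it was 0 of 161 genes higher and 0 of 83 lower upon overexpression, and 0 of 117 lower and 0 of 75 higher upon knockdown. Genes on such lists are detected in these cells, and all coding genes include those that are not, so expression and regulation cannot be told apart here. Their median distance to a site was 1.87 kb, beside 2.09 kb for all coding genes. NR5A2, the relative of SF-1, was in none of the lists. It started in a site-free window, as did MYCN, ERBB4, a receptor of neuregulins, and CXCL12, a chemokine, all chosen here after their values were seen. MYCN and CXCL12 lay there over their whole length, whereas NR5A2 and ERBB4 extended into windows with sites. No site lay in NR5A2 itself, which ended at chr1:200146548, while the stretch without sites ran on to chr1:200323500. ERBB4 did reach past the site that bounds its stretch at chr2:212610300.

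The motif of SF-1 was also counted in the windows, as CAAGGTCA or CAAGGCCA on both strands. Its mean density was 91.5 per Mb in site-free windows and 114 per Mb in windows with sites, but 95.2 per Mb in the latter after weighting to the same GC content, a ratio of 0.962. GACATGCA or GACACGCA, which hold the same letters in another order, gave a ratio of 1.10. GACACGCA holds a CpG, which neither form of the SF-1 motif does, so this control differs from the motif by more than letter order. The motif of the insulator protein CTCF, allowing 1 mismatch, gave 0.979, and that of AP-1 (TGACTCA or TGAGTCA, each the reverse complement of the other) gave 1.01. CpG gave 0.984. At equal GC content these ratios thus ran from 0.962 to 1.10, whereas that of coding starts was 0.376. No site-free window lacked the SF-1 motif, the densities ranging from 22 to 210 per Mb, and a match is not a bound site.

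Windows just outside the rule had values near those inside it. In 336 windows there was exactly 1 site, of which 190 were basal and 146 overexpression sites. These windows lacked a coding start in 66.7% of cases, and the difference, site-free minus 1 site, was -0.788 points (interval -8.16 to 6.54). Their median GC content was 36.7%, and 49.7% had no base of a coding gene. The lone sites were narrow, with a median width of 149 bp against 249 bp for all sites. None stood in the first 10% of its list by peak number, and 301 (89.6%) stood in the last 50%. The share fell with the number of sites, with 57.3% of windows lacking a coding start at 2 sites, 43.4% at 3 to 5, 22.5% at 6 to 10, 8.77% at 11 to 20 and 2.69% above 20.

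To see whether windows lacking sites in 1 library also lacked them in the other, each list was taken on its own. There were 511 windows without a basal site (9.46%) and 622 without an overexpression site (11.5%). Of the 511 windows chosen on the basal list alone, 57.9% also had no overexpression site, against 6.67% of the other windows, a difference of 51.3 points (46.9 to 55.5). Of the 622 chosen on the overexpression list, 47.6% had no basal site, against 4.50% of the others, a difference of 43.1 points (39.1 to 47.1). The libraries are of the same cells and genome, so that this is an overlap between a pair of libraries and not a replicate of either condition.

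The windows free in only 1 list numbered 541, with 326 free in the overexpression list and 215 in the basal list, so 60.3% (56.0 to 64.4%) were free upon overexpression. The lists differ in length, and at equal length the share no longer stood apart from 50%. It was 48.1% (43.9 to 52.4%) when the last peak numbers of the basal list were left out, and 47% (42.8 to 51.2%) when its narrowest sites were. Most of these windows lacked sites in 1 list by a small margin. Among the 326, 190 had a lone basal site and none had more than 6, and among the 215, 146 had a lone overexpression site. Their median GC contents of 36.6 and 37.2% and their shares without a coding start, 65.6 and 62.8%, were near those of the site-free windows.

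A few windows stood out. In chr7:6500001-7000000, with 10 coding starts including KDELR2, a receptor of the endoplasmic reticulum, there were 0 basal and 9 overexpression sites. In chr22:50500001-51000000, with 21 coding starts and 55.7% GC, there were 0 and 7, and in chr1:30500001-31000000, with no coding start, 0 and 4. In the other direction, chr12:79500001-80000000, chr4:36500001-37000000 and chr4:127500001-128000000 each had 6 basal and 0 overexpression sites and no coding start. The differences are between single libraries and were not tested.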

How the data were processed

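FAIRE site lists were used, 1 for basal SF-1 expression and 1 for SF-1 overexpression, grouped per the labels. Per the file headers they are browser tracks with chromosome, start, end, peak number, score and strand. The authors deposited a score of 1000 for all sites, and it was not used. The submitters' processing notes name hg19 and CASAVA 1.8. The aligner, caller and threshold for FAIRE are not given in the sources used here, nor are read counts, so depth is unknown. The 2 input DNA samples were not analysed here.

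The 500 kb windows, the limit of 50% N and the members followed the stated rule, and members and gene lists were chosen with earlier results of these data known. A site belonged to each window it touched, and genes (GENCODE 44 mapped to GRCh37) to the window of their start. Motifs were searched on both strands. Uniqueness was the share of 31-mers, sampled each 2500 bp, that occur once in GRCh37. The genome file has no lower-case letters, so the planned share of masked repeats could not be computed. Intervals are exact binomial (Clopper-Pearson) or Newcombe for differences, at 95%, and a count of 0 was given the limit of 3 counts. They cover counting error only. No p-value was computed. Named genes were those starting in the 5 longest runs, the 20 longest inside site-free windows, those of the 10 windows richest in starts, at most 20 with CpG-rich promoters and the families, and others are marked as chosen after their values were seen. Genes regulated by SF-1 were matched by symbol to the study's lists. Alternatives covered the grid, the window length, gaps, site assignment, list and width. Scripts were tested on simulated data and used Python 3.11.15, numpy 2.4.6, pandas 2.3.3 and scipy 1.17.1. The promoter of 1 gene is not reported here.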

Additional observations from a re-analysis of the deposited data

How the results depend on the processing

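Of 72 recomputed values for 8 results, 43 stayed close to the reported value (shares within its exact interval, counts and run lengths within 1.5 times it), 27 moved beyond and 2 crossed 50%. The share of windows free in only 1 list that were free upon overexpression fell from 60.3% to 48.1% at equal list length by peak number and 47% by width, both with intervals that include 50%. A grid from 250 kb put 1.07% of coding starts in site-free windows. With 250 kb windows, 1617 (15%) were site-free, 75.6% of them had no coding start, and they held 4.14% of coding starts. With 1 Mb windows it was 30 (1.11%), 50% and 0.416%. With sites narrower than the pooled median left out, 963 windows (17.8%) were free, the longest run was 6 Mb, 82.0% were below the GC median and 4.53% of coding starts lay in them. With the basal list alone, windows being counted from its own first to last site (5399 in place of 5401), it was 509 (9.43%) and 2.41% of starts, and with the overexpression list alone 622 (11.5%), 2.66% and 80.2% below the GC median. With chromosome X added, the longest run was 3.5 Mb. Counting starts of all annotated genes, 3.04% of site-free windows had none. Coding genes wholly inside made 1.07%, and without windows of low uniqueness, an alternative chosen after seeing the data, 0.940% of starts remained. Against windows with 1 or 2 sites, 46.3% were below the GC median. Standardised to GC content, the difference in windows without a coding start was 26.1 points in place of 42.4. The cause of these shifts was not tested, except that shorter windows and fewer sites by construction leave more windows free. No paired analysis was possible because each condition had 1 library. Unknown depth limits all counts: an unlisted site may be an undetected one.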

Other observations

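Chromosome X was outside the rule. There, 48 of 299 windows with sequence had no site (16.1%, interval 12.1 to 20.7%), and the longest run had 7 windows, at chrX:141000001-144500000, longer than any autosomal run. It held MAGEC2 and the SPANXN genes, known from testis and tumours, and SLITRK4, a neuronal membrane protein. The runs of 3 windows that followed were at chrX:81500001-83000000, with the neural factor POU3F4, and chrX:98000001-99500000, with no coding start. The median GC content was 36.9% in these 48 windows and 39.4% in windows of X with sites, and 35 of 852 coding starts of X lay in them.

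Of the 200 windows that were mostly assembly gap, 19 had sites. The most were in chr16:46000001-46500000, with 8 basal and 26 overexpression sites, and chr10:42000001-42500000, with 12 and 14. In both, over 70% of bases were undetermined, at 77.2 and 71.0%.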
